A study of Mus musculus with 2 samples.

Results

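The cells described here are the CD150-high, CD48-low cells of 2 CITE-Seq libraries, one marked by barcode suffix 1 and the other by suffix 2. A cell was kept if mitochondrial UMIs were under 10% of its total and it had more than 1500 genes with a UMI. Within each suffix the cells were then selected on their antibody tags alone: a CD150 tag at or above the 75th percentile and a CD48 tag at or under the 25th percentile. This gate held 555 of 4688 cells, 172 of suffix 1 and 383 of suffix 2. Both libraries came from LSK cells (lineage-negative, Sca-1-positive, c-Kit-positive bone marrow cells) sorted from C57BL/6JRj mice, with no transgene or treatment named in the labels. One library was made from mice aged 3 to 5 months and the other from mice aged 22 to 28 months. Each library pooled several female animals, by the study's methods. Which suffix belongs to which age is not given in the sources used here, and none was assigned. Every comparison below is therefore between 2 libraries with no replicate on either side, so no test was run. Intervals are 95% intervals that cover counting error only.

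LSK cells hold the blood-forming stem cells together with their earliest descendants, which have begun to favour lymphoid, myeloid or megakaryocyte fates. CD150 and CD48 are surface receptors of the SLAM family, encoded by Slamf1 and Cd48, and the CD150-positive, CD48-negative part of LSK bone marrow is known to be rich in long-term stem cells. Such cells divide rarely, carry receptors such as Procr, and in part express genes shared with platelets and endothelium. CITE-Seq reads from each droplet both mRNA and the barcodes of antibodies that had bound the cell surface, and unique molecular identifiers (UMIs) count both.

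The same percentiles fell at very different tag counts in both libraries. In suffix 1 the gate began at a CD150 count of 40 and ended at a CD48 count of 224, whereas in suffix 2 it began at 407 and ended at 42. The lowest gated CD150 counts were 40 and 407, and the highest counts just outside were 39 and 406. For CD48 the highest gated counts were 223 and 42, and the lowest counts just outside were 229 and 43. The gated cells accordingly had median CD150 counts of 189.5 in suffix 1 and 775 in suffix 2, and median CD48 counts of 111 and 20. These tag values chose the cells and are given as a description. With percentiles taken once over both libraries (CD150 at least 160.75, CD48 at most 75), the gate held 33 cells of suffix 1 and 614 of suffix 2, and with the thresholds of suffix 2 for both it held 15 and 383. Values at the threshold over both libraries, called the common threshold below, are given beside the main results, on only these few cells of suffix 1.

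**Figure D1:**
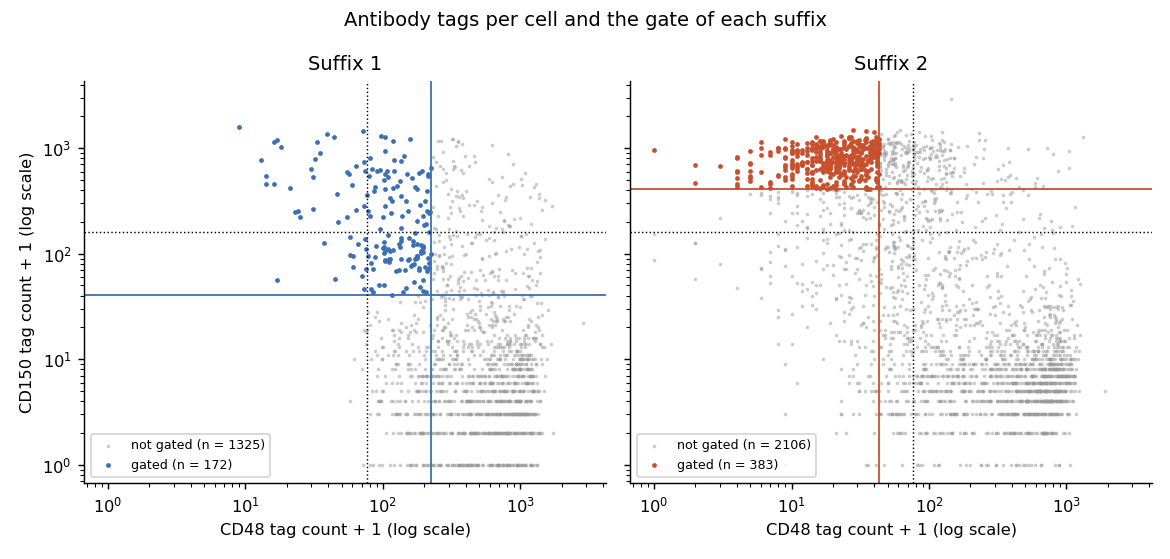
Each point is a kept cell, by its CD48 tag count + 1 (x axis, log scale) and CD150 tag count + 1 (y axis, log scale), for suffix 1 (left) and suffix 2 (right). Solid lines mark each suffix's own thresholds (CD150 40 and 407, CD48 224 and 42), dotted lines the thresholds taken over both libraries, and colour the 172 and 383 gated cells.

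Depth and quality were close in the gated cells of both libraries. The gated cells held 2252289 UMIs in suffix 1 and 5266847 in suffix 2, with medians of 12917 and 13477 UMIs per cell, 3773.5 and 3803 genes, and 6.54% and 6.71% mitochondrial UMIs. No barcode sequence was shared between the libraries, and scrublet called no gated cell a doublet (5 of 1524 kept cells in suffix 1 and 32 of 2544 in suffix 2). Slamf1 and Procr were higher, and Dntt and Mpo lower, in gated than in other kept cells of each library. Slamf1 stood at 16.9 CPM (the UMIs of a gene scaled to the same total in every group) in gated cells against 1.93 CPM in the other kept cells of suffix 1, and at 64.2 against 8.83 CPM in suffix 2. Procr, the endothelial protein C receptor, stood at 115 against 48.5 CPM and at 246 against 82.5 CPM. Dntt, the DNA polymerase of lymphoid progenitors, was at 1.33 against 332 CPM in suffix 1 and at 1.52 against 202 CPM in suffix 2. Mpo, the myeloid peroxidase, was at 0.888 against 106 CPM and at 1.71 against 247 CPM. Hlf, a transcription factor of stem cells, separated gated from other cells least in suffix 1, at 432 against 406 CPM, compared with 322 against 211 CPM in suffix 2. Cd34, taken as a marker of other LSK cells, stood at 202 against 531 CPM in suffix 1 and at 40.3 against 410 CPM in suffix 2. In suffix 1 a UMI of Cd34 was found in 76.7% of gated cells. Xist, the X-inactivation RNA of female cells, stood at 2095 and 2196 CPM, and none of the 4 Y-linked genes passed the filter on detection.

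Markers of other cell types were counted in the gated cells. Of 15 markers of mature B and plasma cells 3 passed the filter, and their summed level over all members was 153 CPM in suffix 1 and 282 CPM in suffix 2, with Xbp1 and Cd79b, which LSK cells also express, at ratios of 1.42 and 0.999 and Igkc, described below, at 0.444 and 81.5 CPM. Of 15 T and NK markers only Klrb1c passed, with summed levels of 7.99 and 72.9 CPM and 12 and 10 members at 0. None of 15 neutrophil and macrophage markers passed (summed levels of 25.3 and 14.8 CPM), and of 11 stroma markers only Col1a2 did, at 17.3 CPM in suffix 1 and 6.08 CPM in suffix 2. The part of these cell types in the results was not tested.

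Across the genes with a UMI in at least 10% of the gated cells of either suffix, 96 of 9331 (1.03%) were at least 2-fold higher in suffix 2 and 66 (0.707%) were at least 2-fold lower, on the scale of CPM with 10 added. The median log2 ratio over all of these genes was -0.09, and the middle 90% lay between -0.52 and 0.47. TMM scaling or DESeq2 size factors gave 123 higher and 54 lower genes, so that the share of higher genes among those past 2-fold was 69.5% in place of 59.3%. At least 4-fold, 16 genes were higher and 2 were lower.

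**Figure D2:**
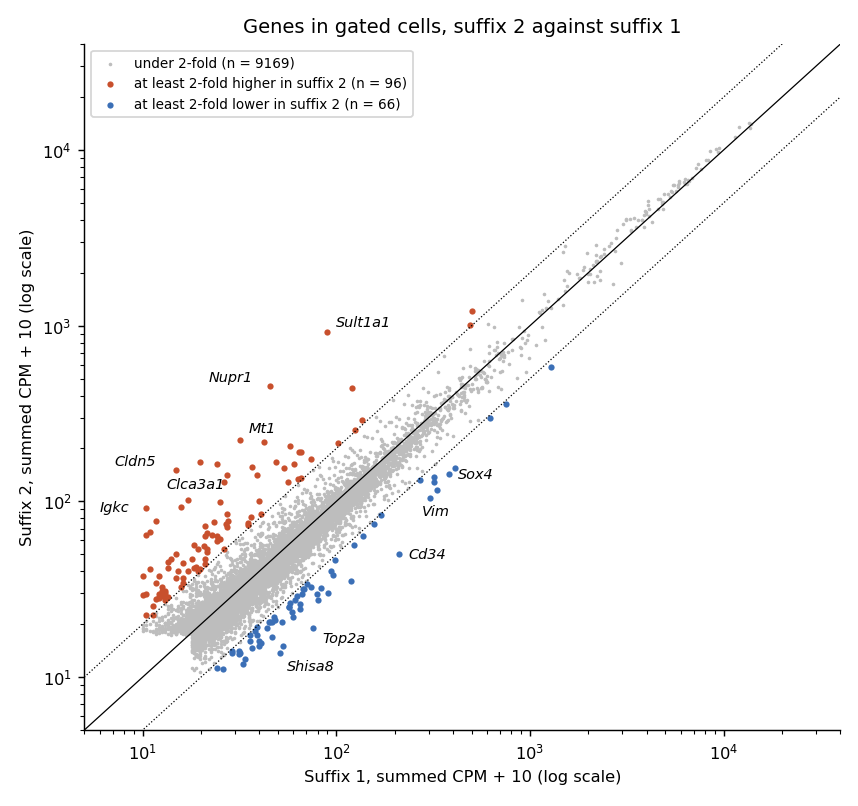
Each point is one of 9331 genes, by its summed CPM + 10 in the gated cells of suffix 1 (x axis, log scale) and suffix 2 (y axis, log scale), with the diagonal and 2-fold lines. The 96 higher genes reach further from the diagonal than the 66 lower ones, with Sult1a1, Nupr1 and Cldn5 furthest above it and Cd34 and Top2a furthest below.

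The higher and lower genes behaved differently once one tag threshold was used for both libraries. With percentiles over both libraries, 47 of the 96 higher genes were still at least 2-fold higher and 93 had the same sign, against 100 of 9294 genes (1.08%) higher overall. Of the 66 lower genes, 8 were still at least 2-fold lower, against 25 genes (0.269%) overall. The 20 genes highest in suffix 2 all stayed past 2-fold at the common threshold, and so did 17 of them at the thresholds of suffix 2, where 15 cells of suffix 1 remained and 4.48% of 9474 genes were past 2-fold higher and 1.88% lower. Of the 20 genes lowest in suffix 2, 5 stayed past 2-fold at the common threshold and 2 at the thresholds of suffix 2. With the thresholds of suffix 1 for both libraries (172 and 967 cells), 59 of the 96 higher genes and 5 of the 66 lower genes stayed past 2-fold, against 0.633% and 0.0643% of 9325 genes.

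Part of the difference was also present outside the gate. In the 1325 and 2106 kept cells with tags that the gate left out, 28 of 9685 genes (0.289%) were at least 2-fold higher and 7 (0.0723%) lower in suffix 2. Of the 96 genes higher in gated cells, 19 were past 2-fold there too and 95 had the same sign, and of the 66 lower genes 1 was past 2-fold and 61 had the same sign. Since the higher and lower genes were chosen by their ratio in the gate, these counts are a description.

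**Figure D3:**
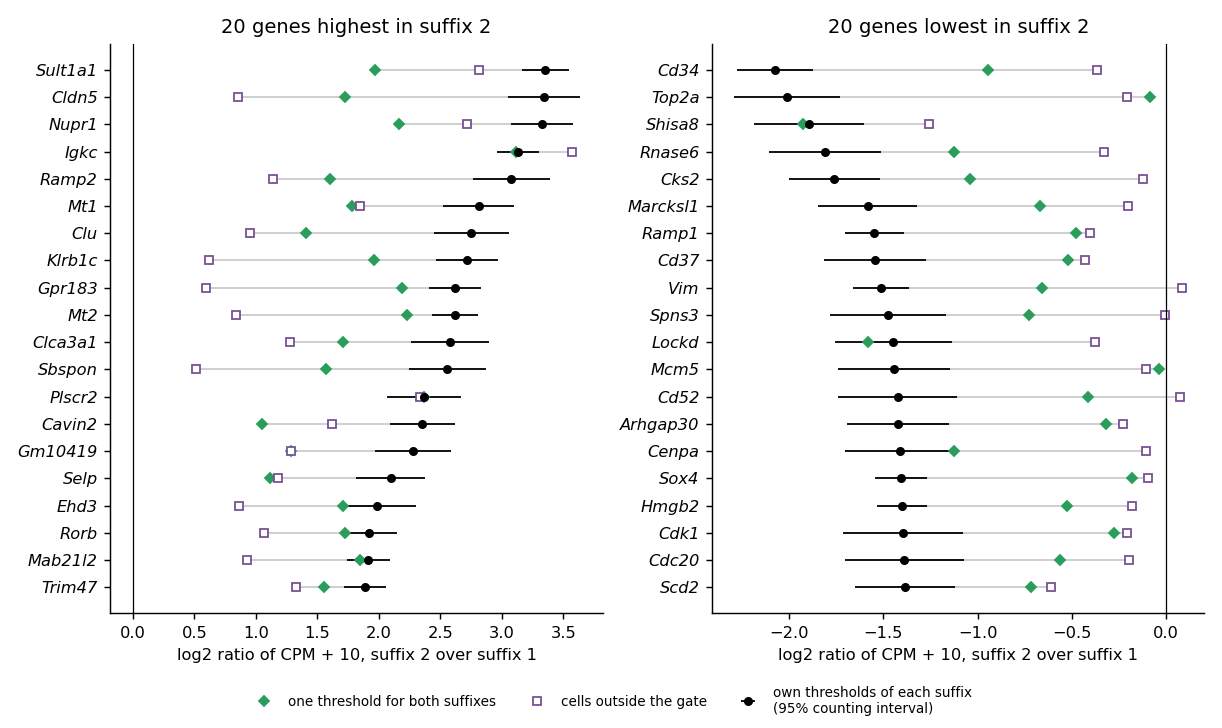
The log2 ratio of CPM + 10 (suffix 2 over suffix 1, x axis) for the 20 genes highest (left) and the 20 lowest (right) in suffix 2: black circles with 95% counting intervals for the gate with own thresholds, green diamonds for one threshold for both libraries, open squares for cells outside the gate. Every diamond on the left lies above 1, whereas on the right 5 of 20 lie below -1.

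The highest log2 ratios were those of Sult1a1, Cldn5, Nupr1, Igkc, Ramp2 and Mt1, in this order. Sult1a1, a sulfotransferase that conjugates phenols and other small molecules, stood at 79.9 CPM (68.7 to 92.5) in suffix 1 and 909 CPM (883 to 935) in suffix 2, a ratio of 11.4 (9.79 to 13.3). Nupr1, a stress-induced nuclear protein, stood at 35.5 CPM (28.2 to 44.2) and 446 CPM (428 to 465), a ratio of 12.6 (10.1 to 15.9). Neither pair of intervals overlapped, and at the common threshold the ratios were 4.06 (3.26 to 5.13) for Sult1a1 and 4.87 (3.48 to 7.05) for Nupr1. Both differences extended to cells outside the gate, where Sult1a1 stood at 11.7 and 142 CPM, a ratio of 12.1, and Nupr1 at 2.90 and 74.96 CPM, a ratio of 25.8 (20.5 to 33.1) that was larger than in the gate. Sult1a1 had a UMI in 30.1% (23.05 to 38.0) of gated cells of suffix 1 thinned to 9000 UMIs and in 98.9% (97.2 to 99.7) of those of suffix 2 (40.1% and 99.5% unthinned). In Flt3-expressing, CD48-high cells, a population outside the gate that is read here as background, its thinned shares were 2.99% and 5.78%. Those cells had median depths of 18767.5 and 20639 UMIs before thinning.

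Sult1a1 and Nupr1 are neighbours in the genome. In RefSeq coordinates on GRCm38, Nupr1 lies at chr7:126623246-126625470 and Sult1a1 at chr7:126672865-126690443, with 47395 bases between them. Sgf29, the gene that separates them, stood at 63.0 CPM in suffix 1 and 68.5 CPM in suffix 2, a ratio of 1.09 (0.893 to 1.33). Slx1b overlaps Sult1a1 in the annotation. Of the other genes around the pair that passed the filter, Eif3c, Cln3, Mapk3 and Ypel3 had, with Slx1b, ratios between 0.897 and 1.26, Bola2 had 1.41 (1.22 to 1.65), Apobr had 0.575 (0.347 to 0.964), Il27 had 2.19 (1.06 to 5.08), and Coro1a, an actin-binding protein of leukocytes, had 0.528 (0.489 to 0.570). The difference of the pair was thus not a feature of all genes in this stretch.

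The metallothioneins Mt1 and Mt2, small cysteine-rich proteins that bind zinc and copper, differed together. Mt1 stood at 21.8 CPM (16.1 to 28.8) in suffix 1 and 213 CPM (201 to 226) in suffix 2, a ratio of 9.78 (7.35 to 13.3). Mt2 had 1 UMI in the gated cells of suffix 1 and 285 UMIs in suffix 2, or 0.444 and 54.1 CPM, a ratio of 122 (21.7 to 4831). The log2 ratios of Mt1 and Mt2 were 2.81 and 2.62 in the gate and 1.78 and 2.23 at the common threshold. In the 363 gated cells of suffix 2 thinned to 9000 UMIs, 256 had a UMI of Mt1 and 98 of Mt2, and 89 of those 98 had both, with a Spearman rho of 0.43. This was the highest of the 190 pairs among the 20 highest genes, the next being Ramp2 with Mab21l2 at 0.31, and it describes cells of a single library. Mt1 had a UMI in 14.9% of the thinned Flt3-expressing cells of suffix 2 against 70.5% of gated ones (3.24% against 15.4% in suffix 1). The part of free RNA in its counts was not tested. The gene of Mt3 beside them held 1 and 7 UMIs, and Mt4 held none.

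The promoters of both metallothionein genes are shown because the 2 genes differed together and metallothioneins are known targets of the metal-responsive factor Mtf1. Sequences are from RefSeq on GRCm38.p6, 250 bases before the start to 30 after it, at chr8:94178839-94179118 (Mt1) and chr8:94172368-94172647 (Mt2), both on the plus strand. Capitals mark the core letters TGCACNC or TGCGCNC of the metal response element on either strand.
Mt1: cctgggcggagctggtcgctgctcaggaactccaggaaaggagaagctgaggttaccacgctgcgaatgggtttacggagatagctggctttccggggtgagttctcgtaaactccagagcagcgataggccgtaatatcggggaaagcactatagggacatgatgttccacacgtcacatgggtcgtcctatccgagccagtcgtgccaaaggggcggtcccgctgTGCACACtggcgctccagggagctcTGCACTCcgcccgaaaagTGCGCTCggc
Mt2: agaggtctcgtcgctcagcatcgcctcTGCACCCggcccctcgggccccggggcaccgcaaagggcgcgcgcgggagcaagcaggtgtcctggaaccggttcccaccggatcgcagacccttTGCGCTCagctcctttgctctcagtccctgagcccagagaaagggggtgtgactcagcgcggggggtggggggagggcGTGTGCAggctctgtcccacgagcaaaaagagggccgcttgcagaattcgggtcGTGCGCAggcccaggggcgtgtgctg
Mt1 held 3 matches and Mt2 held 4. At least 1 match was found in 25.7% of all 32851 RefSeq promoter windows of 300 bases, and 4 or more in 0.517% of them. A match is a description of the letters and was not tested as a binding site.

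Among the 28 FOXO and redox genes chosen as a list, 26 passed the filter, of which 6 were higher (1.03% over all genes), none was lower, and the median log2 ratio was 0.06. Besides these 4 genes, Aldh1a1, an aldehyde dehydrogenase used to mark stem cells, stood at 50.2 and 154 CPM, and Gpx3, a secreted glutathione peroxidase, at 7.10 and 30.2 CPM. Gpx3 was at a log2 ratio of -0.01 and Aldh1a1 at 0.99 when the common threshold was used. Mt2 and Gpx3 passed the filter only through suffix 2, so the filter has a part in the count of higher members. Sod1, the superoxide dismutase of the cytosol, stood at 100.3 and 89.4 CPM, and Gpx1, the main glutathione peroxidase, at 948 and 531 CPM with a log2 ratio of -0.82. The list therefore held few genes that were much higher among many that were near the median of all genes.

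Clca3a1, an accessory protein of calcium-activated chloride channels for which the study added an antibody, was higher in suffix 2 as transcript and as surface tag. Its transcript stood at 7.10 CPM (4.06 to 11.5) in suffix 1 and 92.3 CPM (84.3 to 101) in suffix 2, a ratio of 13.0 (7.92 to 22.9), and at 4.39 (2.22 to 10.2) with the common threshold. It had a UMI in 7.05% of thinned gated cells of suffix 1 and 51.0% of suffix 2 (8.14% and 60.8% unthinned), against 0 of 401 and 0.913% of thinned Flt3-expressing cells. That count of 0 allows, by a floor of 3 counts, a share of up to 0.748% of cells with a UMI at 9000 UMIs, which limits detection and not expression. Outside the gate the transcript stood at 1.69 and 18.4 CPM.

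The CLCA3A1 tag took no part in the gate. Its median was 25 counts (18 to 35) per gated cell in suffix 1 and 214 (198 to 229) in suffix 2, a difference of 0.932 (0.785 to 1.08) on the log10 scale. In suffix 1 the gated cells ranged from 0 to 336 with a 95th percentile of 203.45, and 202 of 383 gated cells of suffix 2 (52.7%) exceeded that percentile. The whole ranges overlapped, since suffix 2 ran from 0 to 938. Tags that mapped to no antibody had medians of 31 and 40, a difference of 0.111 (0.0699 to 0.152), and outside the gate the CLCA3A1 medians were 8 and 19 while the unmapped tags went the other way, from 43 to 22. With the common threshold the CLCA3A1 medians were 84 and 197.5, a difference of 0.371 (0.0851 to 0.657) with 33 cells in suffix 1. The tag difference was thus smaller at a common threshold, and its direction was the same at every threshold tried.

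Clca3a1 was placed in the Hippo pathway list with the genes of the pathway that restrains the coactivators YAP and TAZ. Of 24 genes 14 passed the filter, 3 were higher (1.03% over all genes) and none lower, and the median was 0.04. The higher members, Clca3a1, Wwtr1 and Amotl2, passed only through suffix 2, so the filter has a part in this count. The summed level over all 24 members was 420 and 510 CPM, a ratio of 1.22 (1.13 to 1.31). Wwtr1, which encodes TAZ, stood at 4.88 CPM (2.44 to 8.74) and 26.6 CPM (22.4 to 31.4), a ratio of 5.44 (2.95 to 11.2), and Amotl2, an angiomotin-like partner of YAP and TAZ, at 2.22 and 18.4 CPM, a ratio of 8.30 (3.44 to 26.1). Their log2 ratios at the common threshold were 0.98 for Wwtr1 and 0.86 for Amotl2. The kinases of the pathway differed little, with Lats1 at a log2 ratio of -0.11, Lats2 at 0.33, Stk3 at -0.10 and Stk4 at -0.28. Yap1 did not pass the filter. The TEAD letters GGAATG (both strands) were found in 1 of the 16 promoter windows of the 20 highest genes (6.25%), in the last 20 bases of that of Sult1a1, against 14.7% of all windows, and not in those of Clca3a1 or Nupr1.

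Among 25 surface proteins used to sort stem cells, 23 passed, 7 were higher (1.03% over all genes), 1 was lower (0.707%), and the median was 0.31. At the common threshold 3 were higher and none lower (1.08% and 0.269% over all genes). Clca3a1, counted among the higher members, passed the filter only through suffix 2. Alcam, the adhesion molecule CD166, stood at 38.6 CPM (30.9 to 47.6) and 157 CPM (147 to 168), a ratio of 4.07 (3.26 to 5.14), and at 3.17 (1.97 to 5.46) with the common threshold. Outside the gate Alcam stood at 40.5 and 48.8 CPM, so that its difference was larger in the gate. Slamf1, which encodes the gated CD150, had a ratio of 3.80 (2.72 to 5.47) and a log2 ratio of 1.46 that became 0.66 at the common threshold. Procr went from 1.04 to 0.45 and Jam2, a junctional adhesion molecule, from 1.70 to 0.85, while Itgb3, the integrin beta 3 chain, went from 1.49 to 1.33. Neo1, the receptor neogenin, went from 1.29 to 0.55. Ly6a, which encodes the sorted Sca-1, stood at 324 and 534 CPM, and Kit at 172 and 119 CPM, a ratio of 0.692 (0.608 to 0.787). Cd48 had 2 and 8 UMIs in the gated cells.

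Some platelet and endothelial genes were among the higher genes, while the medians of their lists were well under 2-fold. Of 28 platelet and megakaryocyte genes 19 passed, 4 were higher (1.03% over all genes) and none lower, with a median of 0.18, and at the thresholds of suffix 2 the counts were 2 higher and 1 lower (4.48% and 1.88% over all genes). Clu, the chaperone clusterin, stood at 14.2 and 153 CPM, a ratio of 10.8 (7.58 to 15.9), and Selp, P-selectin, at 26.6 and 147 CPM, a ratio of 5.51 (4.23 to 7.29). Vwf, the von Willebrand factor, stood at 28.9 CPM (22.3 to 36.8) and 131 CPM (122 to 141), a ratio of 4.55 (3.52 to 5.96) that was 1.29 (0.923 to 1.85) at the common threshold. The interval of Vwf thus included 1 once the same tag counts were asked of the cells, whereas the log2 ratio of Clu was 1.41 there, against 2.75 in the gate, and that of Selp was 1.11, against 2.10. At the thresholds of suffix 2 all 3 genes were under 2-fold, with log2 ratios of 0.76 for Clu, 0.79 for Selp and 0.05 for Vwf. Pf4, platelet factor 4, stood at 36.4 and 19.2 CPM in the gate and turned to 27.9 and 76.7 CPM at the common threshold.

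Of 20 endothelial-type genes 13 passed, 2 were higher (1.03% over all genes) and none lower, with a median of 0.28. The higher members, Cldn5 and Ramp2, passed only through suffix 2, so the filter has a part in this count. The summed level over all 20 members was 559 and 941 CPM, a ratio of 1.68 (1.58 to 1.79). Cldn5, the tight-junction protein claudin 5, had 11 UMIs in suffix 1 and 743 in suffix 2, or 4.88 CPM (2.44 to 8.74) and 141 CPM (131 to 152), a ratio of 28.9 (16.0 to 58.1). Its UMIs were uneven between cells: it was seen in 32.5% of thinned gated cells of suffix 2, and before thinning the richest 10% of gated cells held 68.2% of its UMIs, with up to 49 in a cell. Ramp2, which pairs with the adrenomedullin receptor, stood at 9.77 and 157 CPM, a ratio of 16.1 (10.5 to 25.8). Cavin2, a coat protein of caveolae that was in neither list, stood at 32.4 and 207 CPM, a log2 ratio of 2.35. The ratios at the common threshold were 4.13 for Cldn5, 3.58 for Ramp2 and 2.19 for Cavin2.

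Several of the highest genes were near absent from suffix 1. Klrb1c, Gpr183, Rorb and Mab21l2 passed the filter only through suffix 2, with a UMI in 2.33%, 1.16%, 1.16% and 0% of gated cells of suffix 1. They were then ranked by their ratio, so their few UMIs in suffix 1 follow in part from this choice. Klrb1c, which encodes the NK receptor NK1.1, had 4 UMIs in suffix 1 and 355 in suffix 2, a ratio of 38.0 (14.7 to 140) that was 7.69 (2.62 to 37.4) at the common threshold, while none of the other 14 T and NK markers passed the filter. Gpr183, an oxysterol receptor that guides lymphocyte migration, had 2 and 300 UMIs, a ratio of 64.1 (17.6 to 532). Rorb, a nuclear receptor, had 2 and 164 UMIs, a ratio of 35.1 (9.55 to 292). Mab21l2, a gene of eye development, had no UMI in suffix 1 and 146 in suffix 2. This was 20.8-fold higher when set against a floor of 3 counts over the gated cells of suffix 1. By the interval used for the other ratios its lower limit was 16.7. With the common threshold Gpr183 and Rorb each stood at 2.53 CPM in suffix 1 and at 47.3 and 31.3 CPM in suffix 2. Outside the gate the same direction was seen at low levels, with Gpr183 at 0.161 and 5.37 CPM and Klrb1c at 1.13 and 7.05 CPM. Rorb stood there at 0.121 and 11.2 CPM, a ratio of 93.0 (31.6 to 453), and Mab21l2 had 2 and 349 UMIs, a ratio of 113 (31.2 to 941).

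The remaining highest genes were detected in both libraries. Trim47, a ubiquitin ligase, stood at 110 and 434 CPM, a ratio of 3.95 (3.46 to 4.52), with a UMI in 55.8% and 92.6% of thinned gated cells. Plscr2, a phospholipid scramblase, stood at 17.3 and 131 CPM, a ratio of 7.57 (5.48 to 10.7), and kept its log2 ratio of 2.37 at the common threshold and 2.34 outside the gate. Sbspon, a thrombospondin-repeat protein, stood at 5.77 and 82.8 CPM, Ehd3, a protein of endosome recycling, at 15.1 and 89.6 CPM, and the uncharacterised Gm10419 at 16.4 and 118 CPM. Their ratios at the common threshold were 4.08 (1.97 to 10.2) for Sbspon, 4.54 (2.19 to 11.3) for Ehd3 and 2.82 (1.70 to 5.05) for Gm10419, against 14.3, 5.94 and 7.19 in the gate.

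Igkc, the constant region of the kappa light chain of antibodies, was a different case. It had 1 UMI in the gated cells of suffix 1 and 429 in suffix 2, a ratio of 183 (32.8 to 7263), but its share was alike in cell types that should lack it. A UMI was found in 48.5% of thinned gated cells of suffix 2 and in 41.2% of thinned Flt3-expressing cells of that library, against 0 of 156 gated cells and 2.24% of Flt3-expressing cells of suffix 1. Unthinned, the shares in suffix 2 were 59.8% of gated cells, 66.4% of other cells and 70.0% of Flt3-expressing cells. Suffix 2 held 10 cells with over 10% of UMIs on immunoglobulin genes and suffix 1 held 2, none of them in the gate. No expression of Igkc by gated cells is read from these UMIs.

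The 20 highest genes, Igkc included, were also counted cell by cell. After thinning to 9000 UMIs, which left out 16 cells of suffix 1 and 20 of suffix 2, the gated cells of suffix 1 had a UMI of a median of 2 of the 20 genes (0 to 9), and those of suffix 2 of a median of 11 (2 to 19). None of 156 cells of suffix 1 reached the median of suffix 2, and 1 of 363 cells of suffix 2 was at or under the median of suffix 1. The ranges nonetheless overlapped, since 106 of 363 cells of suffix 2 lay within the range of suffix 1. The medians were 4 and 11 at the common threshold, and in the Flt3-expressing cells they were 0 and 1. Of the 20 lowest genes the gated cells of suffix 1 had a median of 8 and those of suffix 2 a median of 4, against 12 in the Flt3-expressing cells of both libraries and 6 and 4 at the common threshold. As these genes were picked for their ratio, the distance between the medians is a description of how the ratio is spread over cells.

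**Figure D4:**
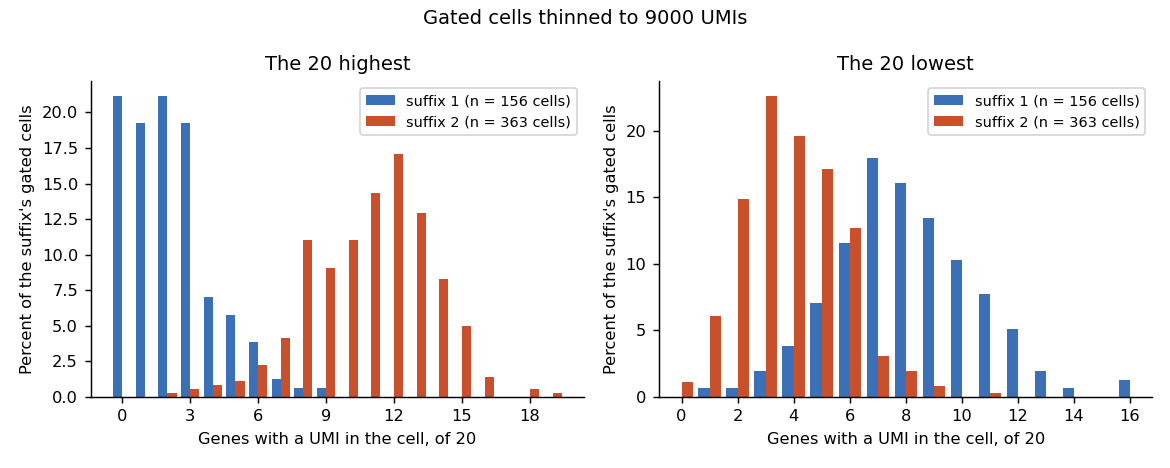
Number of the 20 highest (left) and 20 lowest (right) genes with a UMI in a cell (x axis) against the percent of the suffix's gated cells (y axis), for 156 cells of suffix 1 and 363 of suffix 2 thinned to 9000 UMIs. For the highest genes the medians are 2 and 11, and for the lowest genes 8 and 4.

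The lowest log2 ratios were those of Cd34, Top2a, Shisa8, Rnase6 and Cks2, in this order. Cd34, a sialomucin used to separate short-term from long-term stem cells, stood at 202 CPM (183 to 221) in suffix 1 and 40.3 CPM (35.0 to 46.1) in suffix 2, a ratio of 0.200 (0.169 to 0.236). A UMI was found in 69.2% and 27.8% of thinned gated cells (76.7% and 38.6% unthinned), against 99.0% and 98.5% of Flt3-expressing cells. When one threshold was used Cd34 stood at 104 and 49.2 CPM, a ratio of 0.474 (0.343 to 0.670), and at the thresholds of suffix 2 its log2 ratio was -0.15. Flt3, the receptor of multipotent and lymphoid progenitors, stood at 13.3 and 2.09 CPM, and at 5.06 and 4.49 CPM at the common threshold.

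Of 30 genes of G2 and mitosis 9 passed the filter, none was higher and 6 were lower (0.707% over all genes), with a median log2 ratio of -1.39. Of these Top2a, Cdk1, Aurka and Cdc20 passed only through suffix 1, where they were higher, so the filter has a part in this count and median. The summed level over all 30 members was 1172 and 351 CPM, a ratio of 0.299 (0.282 to 0.318). Top2a, the topoisomerase that untangles replicated DNA, stood at 66.2 CPM (56.0 to 77.7) and 8.92 CPM (6.56 to 11.9), a ratio of 0.135 (0.0950 to 0.188), and Cdk1, the kinase that starts mitosis, at 29.7 and 5.13 CPM, a ratio of 0.172 (0.106 to 0.273). Cdc20, an activator of the anaphase-promoting complex, stood at 31.1 and 5.70 CPM, Cks2, a subunit of Cdk complexes, at 109 and 25.1 CPM, Cenpa, the histone of centromeres, at 55.1 and 14.4 CPM, and Hmgb2, a chromatin protein of dividing cells, at 400 and 146 CPM. With one threshold for both libraries the ratio of Top2a was 0.903 (0.402 to 2.51), that of Cdk1 0.654 (0.242 to 2.48), that of Cdc20 0.494 (0.228 to 1.27), that of Cks2 0.426 (0.298 to 0.626) and that of Hmgb2 0.684 (0.563 to 0.838). The list then had 3 lower members (0.269% over all genes) and a median of -0.56, and at the thresholds of suffix 2 it had none (1.88% over all genes) and a median of -0.16. In suffix 1 the richest 10% of gated cells held 87.9% of the UMIs of Top2a, with 44 in a single cell, 70.6% of those of Cks2 and 65.6% of those of Hmgb2, although Hmgb2 had a UMI in 79.5% of thinned gated cells. The list's median level per cell was 436 and 310 CPM. Cells with at least 3 UMIs over the list made up 75.6% (68.1 to 82.1) of thinned gated cells in suffix 1 and 55.1% (49.8 to 60.3) in suffix 2, 70.4% and 59.8% at the common threshold (27 and 574 cells), 75.6% and 64.2% at the thresholds of suffix 1, and 54.5% (23.4 to 83.3, 11 cells) and 55.1% at those of suffix 2. More dividing cells and more such RNA per cell cannot be told apart from the sums.

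Promoters of 3 of these genes are shown because genes of G2 and mitosis are known to share the cell cycle genes homology region, through which they are repressed in resting cells. Sequences are from RefSeq on GRCm38.p6, 250 bases before the start to 30 after it, all on the minus strand, at chr10:69352883-69353162 (Cdk1), chr4:118437314-118437593 (Cdc20) and chr11:99024160-99024439 (Top2a). Capitals mark the letters TTTGAA or TTCGAA on either strand.
Cdk1: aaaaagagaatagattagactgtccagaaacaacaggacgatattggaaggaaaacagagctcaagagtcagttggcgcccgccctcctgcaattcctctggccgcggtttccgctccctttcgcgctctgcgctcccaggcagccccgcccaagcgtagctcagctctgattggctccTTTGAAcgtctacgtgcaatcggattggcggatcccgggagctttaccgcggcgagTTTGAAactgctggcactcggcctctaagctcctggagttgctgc
Cdc20: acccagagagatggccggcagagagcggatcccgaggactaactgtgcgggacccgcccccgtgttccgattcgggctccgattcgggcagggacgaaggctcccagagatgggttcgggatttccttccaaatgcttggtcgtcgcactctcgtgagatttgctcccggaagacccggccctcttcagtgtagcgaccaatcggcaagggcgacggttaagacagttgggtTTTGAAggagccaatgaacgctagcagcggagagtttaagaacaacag
Top2a: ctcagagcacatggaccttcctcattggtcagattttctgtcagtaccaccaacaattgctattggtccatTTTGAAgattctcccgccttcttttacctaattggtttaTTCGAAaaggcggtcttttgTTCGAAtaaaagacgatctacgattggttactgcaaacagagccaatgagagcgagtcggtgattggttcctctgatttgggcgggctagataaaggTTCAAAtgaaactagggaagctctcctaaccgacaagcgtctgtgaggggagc
The 3 promoters held 2, 1 and 4 matches. Over the whole list, 22 of 28 windows (78.6%) held a match, against 19.2% of all 32851 windows and 4 of the 28 windows of the S phase list. Among the 20 genes lowest in suffix 2, 9 of 19 windows held one. The letters describe these windows and were not tested as sites.

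Of 31 S phase genes 25 passed, none was higher, 7 were lower (0.707% over all genes), and all 25 log2 ratios were below 0, with a median of -0.73. Some of them, Hells and Uhrf1 included, passed only through suffix 1, and the summed level over all 31 members was 1255 and 597 CPM, a ratio of 0.476 (0.452 to 0.501). Mcm5, a subunit of the replicative helicase, stood at 49.7 and 11.96 CPM, a ratio of 0.241 (0.174 to 0.330), Hells, a chromatin remodeller, at 29.7 and 6.08 CPM, and Uhrf1, which carries DNA methylation through replication, at 21.8 and 3.80 CPM. The list had no lower member and a median of 0.03 at the common threshold, and the log2 ratios of these genes were -0.04, 0.05 and -0.05. Of 18 G1 cyclins and Cdk inhibitors 15 passed with a median of -0.14. Cdkn2c, the inhibitor p18, was the member past 2-fold higher (1.03% over all genes), at 15.1 and 51.5 CPM. Its ratio was 3.41 (2.38 to 5.02), and 4.18 (1.78 to 12.9) at the common threshold.

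Among the lowest genes outside the cell cycle lists, Shisa8 and Lockd kept their ratios at the common threshold, and the others were nearer to 0 there. At the thresholds of suffix 1 and of suffix 2 the log2 ratios were -1.46 and -2.29 for Shisa8, and -0.81 and -0.95 for Lockd, against -1.45 for Lockd in the gate. In suffix 1 the richest 10% of gated cells held 78.0% of the UMIs of Lockd. Shisa8, a transmembrane adaptor protein, stood at 41.3 CPM (33.3 to 50.6) and 3.80 CPM (2.32 to 5.86), a ratio of 0.0920 (0.0537 to 0.1503), and at 0.111 (0.0634 to 0.200) with the common threshold and 0.338 outside the gate. It had a UMI in 34.0% and 3.58% of thinned gated cells, and in 45.9% and 24.2% of Flt3-expressing cells. Lockd, a noncoding RNA beside Cdkn1b, stood at 36.4 and 7.03 CPM with a ratio of 0.197 (0.118 to 0.343) at the common threshold, and Rnase6, a secreted ribonuclease, had a log2 ratio of -1.81 in the gate and -1.13 there. Sox4, a transcription factor of progenitors, stood at 372 and 134 CPM with a log2 ratio of -1.41 that was -0.18 at the common threshold, and Vim, the filament protein vimentin, at 320 and 106 CPM with -1.51 and -0.66. Marcksl1, Ramp1, Cd37, Spns3, Cd52, Arhgap30 and Scd2 had log2 ratios between -1.58 and -1.39 in the gate and between -0.73 and -0.32 at the common threshold.

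**Figure D5:**
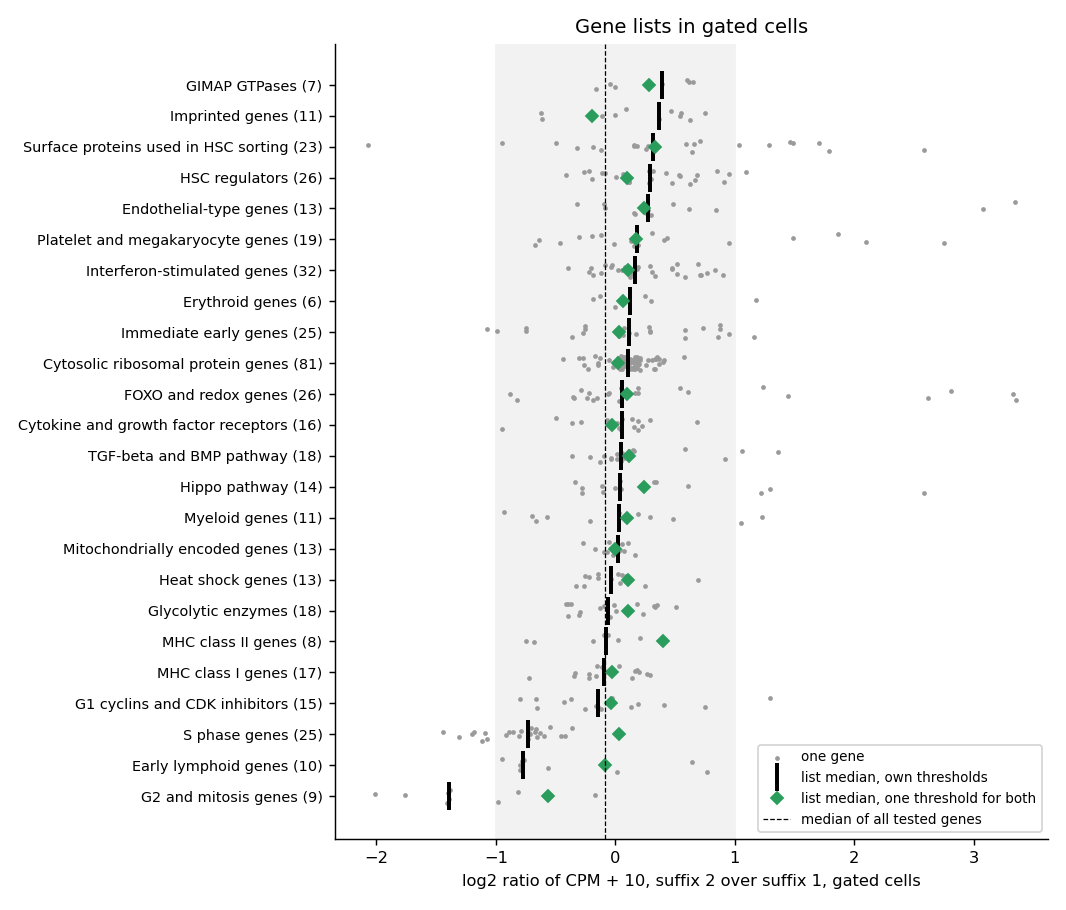
The log2 ratio of CPM + 10 (suffix 2 over suffix 1, x axis) in gated cells for the members of each list that passed the filter (grey points, number in parentheses), with the list median for own thresholds (black bar) and for one threshold for both libraries (green diamond). Medians of the S phase, early lymphoid and G2 and mitosis lists lie at -0.73, -0.77 and -1.39 and nearer to 0 at the common threshold, while the ratios of their summed levels over all members are 0.476, 0.948 and 0.299, and the dashed line marks the median of all genes at -0.09.

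Regulators of stem cells mostly stayed within 2-fold. All 26 listed regulators passed the filter, 20 had a log2 ratio above 0, 1 was past 2-fold higher (1.03% over all genes), and the median was 0.29, which was 0.09 at the common threshold. Mycn, a Myc family factor, stood at 126 and 279 CPM, a ratio of 2.22 (1.956 to 2.53), and 1.14 (0.920 to 1.42) at the common threshold. Mecom, a zinc finger factor that stem cells need, stood at 121 CPM (107 to 136) and 166 CPM (155 to 177), and Hoxb5 at 17.3 and 41.4 CPM, a ratio of 2.39 that was 1.37 (0.754 to 2.77) at the common threshold. Meis1, a homeobox partner of Hox proteins, stood at 344 and 360 CPM, a ratio of 1.05 (0.961 to 1.14). Hlf went the other way, with a ratio of 0.744 (0.687 to 0.806) in the gate and 0.521 outside it.

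Of 20 early lymphoid genes 10 passed, none was past 2-fold, and the median was -0.77, which was -0.08 at the common threshold. Summed over all 20 members the level was 715 and 678 CPM, a ratio of 0.948 (0.894 to 1.01). Il12a, a cytokine subunit, stood at 23.98 and 9.49 CPM, a ratio of 0.396 that was 0.654 (0.306 to 1.67) at the common threshold. Of 22 myeloid genes 11 passed, 2 were higher (1.03% over all genes) and none lower, with a median of 0.03, or 0.10 at the common threshold. Cebpb, a myeloid transcription factor, stood at 64.4 and 164 CPM, a ratio of 2.55 (2.13 to 3.06) that was 1.42 (1.05 to 1.98) at the common threshold, and Prtn3, the protease proteinase 3, at 481 and 1004 CPM, a ratio of 2.09 (1.956 to 2.23) that was 1.99 (1.73 to 2.31) at the common threshold. Spi1, which encodes PU.1, stood at 109 CPM (96.0 to 124) and 70.1 CPM (63.1 to 77.6), a ratio of 0.641 (0.544 to 0.757), and 0.939 (0.647 to 1.41) at the common threshold. Of 20 erythroid genes 6 passed and 1 was higher (1.03% over all genes), Hbb-bt, a beta globin, at 26.2 and 72.0 CPM, a ratio of 2.75 that was 1.66 (1.07 to 2.74) at the common threshold, with a list median of 0.12, or 0.06 at the common threshold.

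Signalling and response genes mostly stayed within 2-fold. Of 27 TGF-beta and BMP genes 18 passed, 2 were higher (1.03% over all genes) and the median was 0.05. Bmpr1a, a higher member, passed only through suffix 2, so the filter has a part in this count. The summed level over all 27 members was 626 and 722 CPM, a ratio of 1.15 (1.08 to 1.23). Bmpr1a, a type I BMP receptor, had 6 UMIs in suffix 1 and 119 in suffix 2, a ratio of 8.48 (3.78 to 23.6), and Id2, a helix-loop-helix inhibitor, stood at 11.1 and 34.0 CPM. None of 16 cytokine and growth factor receptors that passed (of 28) was past 2-fold, with a median of 0.05. Of 30 immediate early genes 25 passed, with a median of 0.12. Fosl2 was higher (1.03% over all genes), at 8.88 and 32.3 CPM, and Myc was lower (0.707% over all genes), at 146 and 64.0 CPM. Fosb, at 314 and 153 CPM, had a log2 ratio of -0.99 that was -1.07 at the common threshold. None of 13 heat shock genes that passed was past 2-fold (median -0.04).

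Immune response genes were within 2-fold in the gate. Of 35 interferon-stimulated genes 32 passed with a median of 0.17, and the list's summed level was 6176 CPM in suffix 1 and 9487 CPM in suffix 2, a ratio of 1.54 (1.51 to 1.57). Ifitm3, a membrane protein that blocks virus entry, stood at 1508 and 2815 CPM. Of 18 MHC class I genes 17 passed with a median of -0.10 and 8 class II genes with one of -0.08. The class II median was 0.40 at the common threshold, with 1 member past 2-fold higher (1.08% over all genes). Outside the gate it was 0.84, with Cd74, the class II invariant chain, at 165 and 464 CPM there against 262 and 346 CPM in the gate. Markers of B and plasma cells summed to 1266 and 4785 CPM outside the gate, and their part in this was not tested. The median of 7 GIMAP GTPases was 0.39.

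Housekeeping lists set the scale of small differences. The median was 0.11 over 81 cytosolic ribosomal protein genes, 0.02 over 13 mitochondrially encoded genes and -0.06 over 18 glycolytic enzymes, with none past 2-fold. Among imprinted genes, of which 22 of 25 symbols were in the matrix, 11 passed with a median of 0.36 that was -0.19 at the common threshold. Gnas, which encodes the stimulatory G protein, stood at 677 and 435 CPM, and Cdkn1c, the inhibitor p57, at 56.8 CPM (47.4 to 67.6) and 102 CPM (93.7 to 111) in the gate but at 93.7 and 95.3 CPM at the common threshold.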

How the data were processed

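Transcripts and antibody tags of sorted LSK cells were measured by CITE-Seq with 3′ chemistry. The deposited matrix holds UMI counts per gene and cell for 31053 genes and 4688 barcodes, which the authors made with Cell Ranger 3.1.0 and combined with its aggregation step. That step normalized the libraries to each other in a mode not given in the sources used here, so depths are those after it. The submitters' processing notes name mm10 and GRCm38. The deposited tag values, made by the authors with CITE-seq-Count, were log10 counts of CD48, CD150, CLCA3A1 (through an anti-PE tag, in a column headed Clca1) and unmapped tags. They were turned back to counts, with minus infinity read as 0. Of 4688 barcodes 4068 were kept, and 3986 of these had tags. Kept cells without tags entered no comparison.

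UMIs were summed over the gated cells of each suffix and scaled to CPM, and log2 ratios had 10 CPM added to both sides. Genes past 2-fold are counts of this difference between 2 libraries and not of a test. Intervals are exact Poisson for CPM, exact conditional binomial for ratios, Clopper-Pearson for shares and order-statistic for medians, all at 95%. PCR and capture make cells of a library alike in ways these do not cover. Shares were compared after thinning each cell to 9000 UMIs. Flt3-expressing cells were those outside the gate with at least 2 Flt3 UMIs, a CD48 tag at or above and a CD150 tag at or below the library's median, without cells over 10% immunoglobulin UMIs. Their definition, the gates with the thresholds of either suffix for both, and the naming of further list members past 2-fold were chosen after values were seen. Doublets were called with scrublet (scanpy 1.11.5, expected rate 0.06, in each library) and removed only as an alternative.

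Genes were named by rule: the 20 highest and 20 lowest log2 ratios, the 3 members of each list furthest from 0, and fixed stem cell genes. Not all members so named are printed, and some are not reported here. The members and the lists were chosen with earlier results of these data known. Alternatives were TMM (edgeR 4.0.16) and DESeq2 1.42.0 size factors, other pseudocounts, filters and gates. Python 3.11.15, numpy 2.4.6, scipy 1.17.1 and pandas 2.3.3 were used. The ratios and intervals were tested on simulated data.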

Additional observations from a re-analysis of the deposited data

Results flagged for a closer look

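For 3 of the genes past 2-fold the libraries differed in opposite directions inside and outside the gate, by more than counting error on each side. The difference between inside and outside was not tested, since each side holds 1 library per suffix. Cd52, a small surface glycoprotein of leukocytes, stood at 23.98 CPM in gated cells of suffix 1 and 2.66 CPM in suffix 2, a ratio of 0.111 (0.0569 to 0.202), while outside the gate the ratio was 1.05 (1.02 to 1.09). Lgals1, the lectin galectin 1, had a ratio of 0.264 (0.180 to 0.385) in the gate, at 33.7 and 8.92 CPM, and 1.15 (1.08 to 1.23) outside it. Vim had a ratio of 0.330 (0.295 to 0.370) in the gate and 1.06 (1.04 to 1.09) outside. At the common threshold the ratios in the gate were 0.420 (0.129 to 2.16) for Cd52, from 3 and 27 UMIs, 0.434 (0.226 to 0.935) for Lgals1 and 0.616 (0.497 to 0.774) for Vim, so that the interval of Cd52 included 1.

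Cells with over 10% of their UMIs on immunoglobulin genes lay outside the gate, 2 in suffix 1 and 10 in suffix 2, and entered no comparison of gated cells. Igkc alone held 8090 UMIs in those of suffix 1 and 150488 in those of suffix 2.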

How the results depend on the processing

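With 1 library on each side no library could be left out. No paired analysis was possible because each side has 1 library and the result comes from no test. The count of genes at least 2-fold higher was 96 and that of lower genes 66. With 1 CPM added they were 264 and 207, with 50 CPM added 26 and 9, with the stricter cell filter (under 5% mitochondrial UMIs, over 2500 genes, 20 and 37 gated cells) 348 and 376, with the thresholds of suffix 2 for both 424 and 178, and with those of suffix 1 for both 59 and 6. Lower genes numbered 25 with percentiles over both libraries and 109 with the 90th and 10th percentile gate. Other settings moved neither count by more than 1.5 times: the other scalings, the filters on genes, gated cells without Flt3 or Cd34 UMIs or without cycling cells, thinning, and means over cells. Similar counts did not mean the same genes: without Flt3 or Cd34 UMIs 59 of the 96 higher and 18 of the 66 lower genes were still past 2-fold, and without cycling cells 91 and 39. Leaving out doublets changed nothing, since none was in the gate.

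The CLCA3A1 tag difference of 0.932 was 0.371 with percentiles over both libraries, 0.602 with the 90th and 10th percentile gate, 1.12 with the stricter cell filter, 0.618 in cells without Flt3 or Cd34 UMIs, 0.344 at the thresholds of suffix 2 and 0.509 as a share of the cell's tags. Of 1840 log2 ratios of named genes under these settings 1190 lay within counting error of the reported one, 638 did not, and 12 of genes past 2-fold turned sign. Spns3 was at 0.36 with the stricter cell filter and Hells at 0.053 with percentiles over both libraries. At the thresholds of suffix 2, with 15 cells in suffix 1, Spns3 was at 0.25, Mcm5 at 0.48, Cd52 at 0.34, Sox4 at 0.34, Hmgb2 at 0.61, Cdk1 at 0.60, Cdc20 at 0.65, Hells at 0.68, Uhrf1 at 0.46 and Hbb-bt at -0.47. The cause of these moves was not tested. Of the 20 highest genes all stayed past 2-fold in every setting tried except 50 CPM added (18) and the thresholds of suffix 2 for both (17). The small number of gated cells in suffix 1 limits every value at a common threshold.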
